A study of Mus musculus with 6 samples.

Results

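ExNeuron5 is one of 6 classes that the authors' annotation of the droplet nuclei names ExNeuron followed by a number. Its members were taken by that annotation alone: 331 of 7031 nuclei (4.71%), with 133335 UMIs, or 5.12% of the UMIs in the table. A UMI (unique molecular identifier) marks 1 captured RNA molecule. The class joined 2 of the authors' leiden values, which are the cluster numbers of a graph-based grouping of nuclei: 299 nuclei had leiden value 5 and 32 had leiden value 9. All nuclei with either number belonged to ExNeuron5, and OPC was the other class of the 12 that joined more than 1 of the 14 leiden values.

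The nuclei came from formalin-fixed, paraffin-embedded (FFPE) brain of C57BL/6J mice aged 8 to 12 weeks, cut as 50 µm scrolls and labelled cortex. Wax was removed by 1 of several methods, which the labels do not assign to the droplet sample, and the tissue was rehydrated and lysed to free the nuclei. The protocol text describes sorting into plates and not how droplets were loaded. No treatment, genotype or sex is given, and the labels do not say how many animals were used. The droplet table is 1 library, so nothing here has a replicate and no test across nuclei was made.

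Excitatory neurons of the cortex release glutamate, which is loaded into vesicles by the transporter encoded by Slc17a7. They are ordered in layers, and neurons of the deep layers differ in where their axons project. Tshz2, a zinc finger transcription factor, and Vwc2l, a secreted protein with a von Willebrand factor C domain, are both known from near-projecting neurons of cortical layer 5, while Tle4 and Hs3st4 are known from layer 6. The droplet RNA is nuclear and largely unspliced, and RNA released from broken nuclei enters other droplets, so low counts of a gene appear in cell types that do not express it.

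ExNeuron5 nuclei held a median of 347 UMIs (quartiles 301.5 to 461.5) and 298 genes, against 323 UMIs and 275 genes in the 5249 nuclei of the other 5 ExNeuron classes, of which ExNeuron4 (371 UMIs) and ExNeuron6 (353 UMIs) were deeper than ExNeuron5. The median mitochondrial share was 3.35% in ExNeuron5 and 3.38% in the other ExNeuron classes. At least 2 genes from the fixed lists of glial, vascular and choroid markers had a UMI in 74.6% of ExNeuron5 nuclei and in 72.5% of the other ExNeuron nuclei. Levels are summed UMIs of a class per 1000000 UMIs of that class (CPM). All intervals are exact 95% intervals that cover counting error only. Because the authors' clusters were made from these nuclei, differences between classes are descriptions.

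ExNeuron5 stood apart from the other ExNeuron classes by Tshz2 and Vwc2l. Tshz2 (ENSMUSG00000047907, chromosome 2, 169633013 to 170071816, plus strand, GRCm38) had 169 UMIs in the class, a level of 1267 CPM. Its level was 84.6 CPM in ExNeuron1, 55.0 in ExNeuron2, 28.2 in ExNeuron3, 76.0 in ExNeuron4 and 12.3 in ExNeuron6. No interval of another class reached that of ExNeuron5, and the highest level elsewhere was 252 CPM in Fibroblast nuclei, from 47 nuclei. ExNeuron5 was 19.9-fold higher than the other ExNeuron classes together (interval 15.7 to 25.3). The class held 50.6% of all Tshz2 UMIs in the library.

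Vwc2l (ENSMUSG00000045648, chromosome 1, 70725715 to 70885397, plus strand, GRCm38) was rarer. It had 54 UMIs in ExNeuron5, a level of 405 CPM, against 10.9 CPM in ExNeuron1, 14.5 in ExNeuron2, 5.13 in ExNeuron3, 46.3 in ExNeuron4 and 12.3 in ExNeuron6. ExNeuron5 was 25.4-fold higher than the other ExNeuron classes together (interval 16.1 to 40.9). Endothelial and Microglia nuclei had 0 UMIs of Vwc2l. With 56597 and 29296 UMIs in total, 0 does not set these classes below the other ExNeuron classes. ExNeuron5 held 56.8% of its UMIs in the library.

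**Figure D1:**
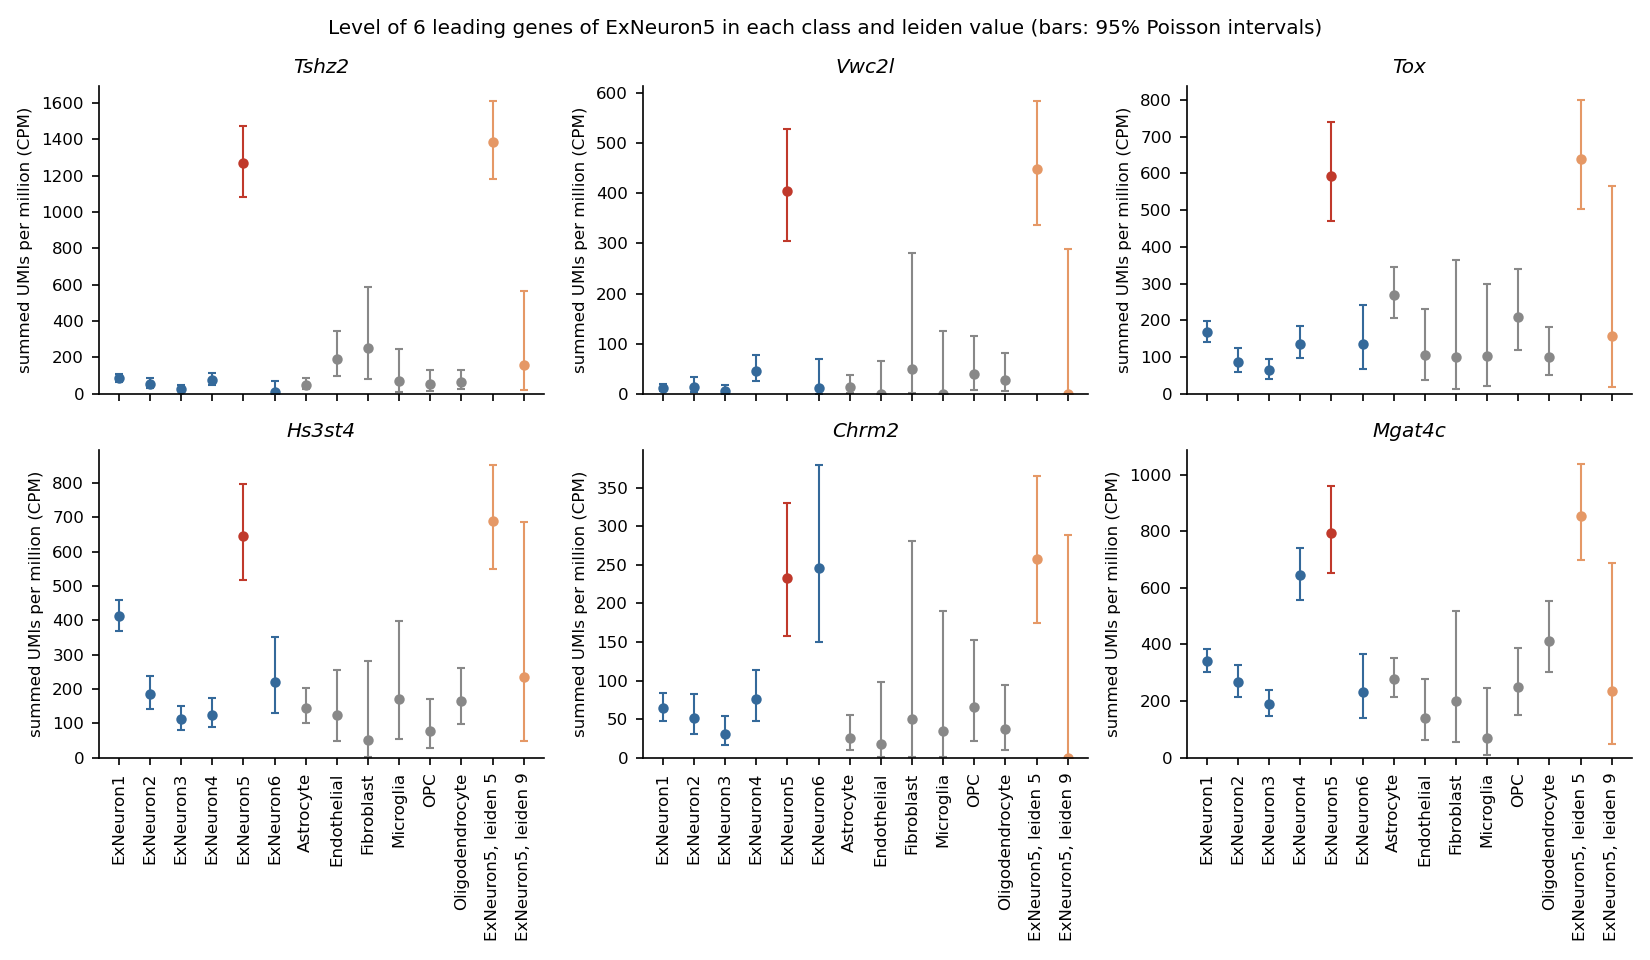
Level of 6 leading genes of ExNeuron5 (CPM, linear axis from 0) in each of the 12 classes and in the 2 leiden values of ExNeuron5; points are levels and bars are 95% Poisson intervals. Tshz2 and Vwc2l reach 1267 and 405 CPM in ExNeuron5 and at most 84.6 and 46.3 CPM in the other ExNeuron classes, while Chrm2 is as high in ExNeuron6 and Mgat4c is also high in ExNeuron4.

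Few nuclei of the class carried these RNAs at the depth reached. A UMI of Tshz2 was found in 106 of the 331 nuclei (32.0%, exact binomial interval 27.0% to 37.3%), against 2.04% of the other ExNeuron nuclei and 1.76% of Astrocyte nuclei, whose median depth was 339 UMIs. With each nucleus thinned to 250 UMIs, which left out 2 nuclei of ExNeuron5 and 137 of the other ExNeuron classes, the shares were 21.6% and 1.29%. Vwc2l was found in 41 nuclei (12.4%, interval 9.04% to 16.4%), against 0.552% of the other ExNeuron nuclei and 0.481% of Astrocyte nuclei. Thinned, these were 8.51%, 0.450% and 0.165%. Either gene was found in 131 nuclei and both in 16.

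Among the genes with enough UMIs to compare, most had levels in ExNeuron5 near those of the other ExNeuron classes. These were 2761 of the 19905 genes in the table, and a ratio near 0 on few UMIs does not show equal levels. Of 2761 genes with at least 10 expected UMIs, 39 were at least 2-fold higher in ExNeuron5 (1.41%) and 43 at least 2-fold lower (1.56%). The log2 ratio lay within 0.5 of 0 for 78.0% of the genes, and its median was 0.03. The whole interval lay above 2-fold for 7 genes and below it for 0, and it lay above no difference for 195 (7.06%) and below for 124 (4.49%). At the edge of the 2-fold call, Puf60 had a log2 ratio of 1.01 and Ppfia1 0.996, and Cacng2 had -1.03 and Ptprm -0.98. Intervals there were wide, from 0.29 to 1.65 for Puf60 on 22 UMIs. Fewer genes passed where at least 20 UMIs were expected: 14 higher and 4 lower.

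**Figure D2:**
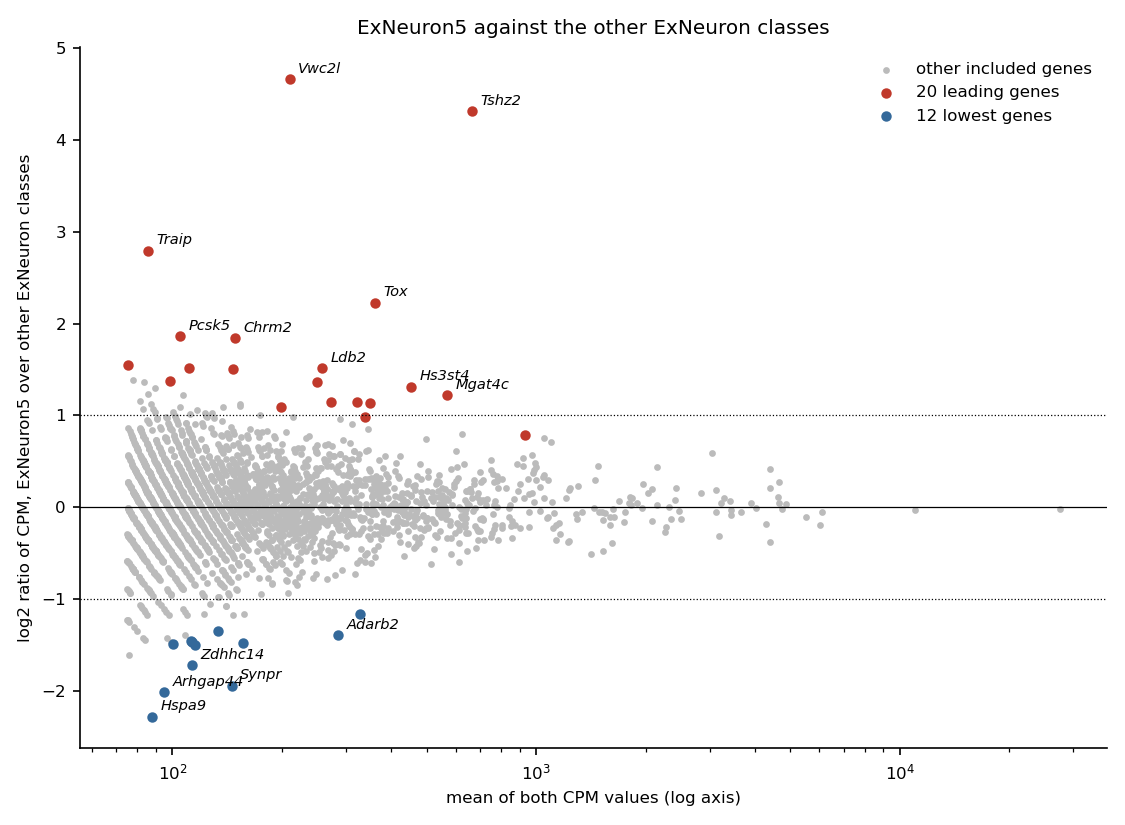
Log2 ratio of CPM, ExNeuron5 over the other ExNeuron classes, against the mean of both levels (log axis) for the 2761 included genes; dotted lines mark 2-fold. Vwc2l (4.67) and Tshz2 (4.31) lie far above the rest, and 78.0% of the genes lie within 0.5 of 0.

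The 20 genes named as leading were those whose interval lay farthest above no difference. ExNeuron5 had the highest level of the 6 ExNeuron classes for 18 of them and of all 12 classes for 13. The interval of ExNeuron5 lay above that of every other ExNeuron class for 8 of the 20. The genes were chosen for a high level in ExNeuron5, so these counts were largely fixed by that choice and are a description. Their median gene span was 316 kb, that of the 12 lowest genes 178 kb, that of the 39 genes at least 2-fold higher 100.5 kb and that of all included genes 80.5 kb. After Vwc2l and Tshz2 came Traip, an E3 ubiquitin ligase, with 20 UMIs and a 6.95-fold higher level (interval 3.87 to 12.1). The Traip UMIs lay in 11 nuclei, and 1 nucleus held 4 of them.

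Tox, an HMG-box transcription factor, had 79 UMIs in 66 nuclei and a level of 592 CPM, against 64.1 to 168 CPM in the other ExNeuron classes and 269 CPM in Astrocyte nuclei. Its level in ExNeuron5 was 4.69-fold that of the other ExNeuron classes together (interval 3.59 to 6.06). Tle4, a corepressor, was 2.84-fold higher (217 against 76.5 CPM). Ldb2, a LIM domain-binding cofactor, was 2.86-fold higher (382 against 134 CPM), and Aff3, a nuclear factor of transcription elongation, 2.21-fold (375 against 170 CPM). In the fixed list of neuronal transcription factor genes, 31 of 35 members were included: Tshz2, Tle4 and Satb1 were at least 2-fold higher and Ebf1 was at least 2-fold lower, where 1.41% and 1.56% of all included genes were. The median log2 ratio of that list was 0.01, next to 0.03 over all genes.

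Chrm2, the muscarinic acetylcholine receptor M2, had 31 UMIs and 232 CPM in ExNeuron5, against 30.8 to 76.0 CPM in ExNeuron1 to ExNeuron4. ExNeuron6 had a similar level of Chrm2, 246 CPM, with overlapping intervals. The adenylyl cyclase genes Adcy8 and Adcy2 were 2.57-fold and 2.21-fold higher than in the other ExNeuron classes (360.0 against 140.2 CPM, and 442 against 200.3 CPM). In the list of protein kinase, phosphodiesterase and cyclase genes, these 2 of 26 included members were at least 2-fold higher and 0 lower, and in the list of neuropeptide and neuromodulator receptor genes Chrm2 was, 1 of 10. The share over all genes was 1.41%, and the median log2 ratios of the lists, -0.02 and -0.11, lay below the 0.03 of all genes.

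Hs3st4, a heparan sulfate sulfotransferase, had 86 UMIs and 645 CPM in ExNeuron5. ExNeuron1 was next with 412 CPM, and the other 4 ExNeuron classes had 113 to 221 CPM. Mgat4c, an N-acetylglucosaminyltransferase homologue, had 795 CPM in ExNeuron5 and 645 CPM in ExNeuron4, whose intervals overlapped, against 190 to 342 CPM in the other ExNeuron classes. Nrp1, a semaphorin and VEGF coreceptor, was 2.87-fold higher than in the other ExNeuron classes (165 against 57.5 CPM) but reached 303 CPM in Fibroblast nuclei. Gpc6, a glypican, was 1.97-fold higher (450.0 against 228 CPM) and stood at 978 CPM in Astrocyte and 1161 CPM in Fibroblast nuclei. Nrp1 was the 1 of 19 included axon guidance genes at least 2-fold higher, against 1.41% of all genes, and Dcc, the netrin receptor, had a log2 ratio of 0.80 (interval 0.49 to 1.09).

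Of the remaining leading genes, Pcsk5, a proprotein convertase, was 3.65-fold higher, Wls, which carries Wnt proteins to the surface, 2.92-fold, and Uhmk1, a serine/threonine kinase, 2.59-fold. Efr3a, a membrane anchor of a phosphatidylinositol kinase complex, was 2.20-fold higher. Ano4, a TMEM16 family gene, was 2.13-fold higher than in the other ExNeuron classes together (270.0 against 126.9 CPM), yet ExNeuron6 had 455 CPM and Oligodendrocyte nuclei 561 CPM. With each ExNeuron class weighted equally, the log2 ratio of Ano4 dropped from 1.09 to 0.50. Frmpd4, a postsynaptic scaffold gene, was 1.73-fold higher (1177 against 682 CPM).

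**Figure D3:**
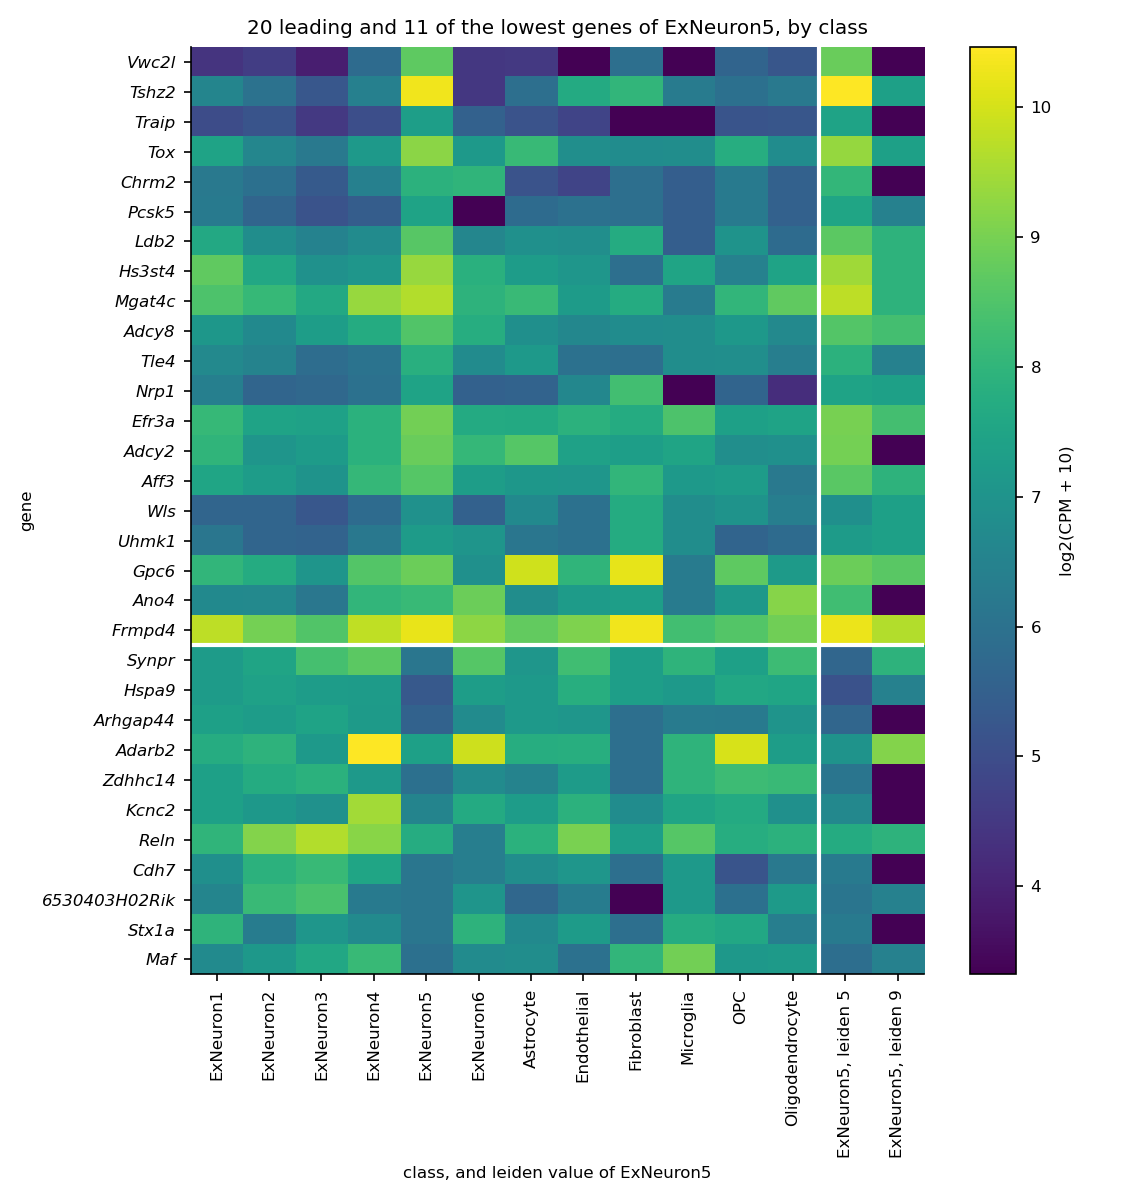
Level, as log2(CPM + 10), of the 20 leading genes and 11 of the 12 lowest genes of ExNeuron5 (rows) in the 12 classes and in the 2 leiden values of ExNeuron5 (columns). ExNeuron5 has the highest level of the 6 ExNeuron classes for 18 of the 20 leading genes, which were chosen for a high level there. Of the 20, 5 have 0 UMIs in leiden value 9.

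The 12 genes lowest in ExNeuron5 were of more than 1 pattern. Hspa9, a mitochondrial chaperone, had 4 UMIs and 30.0 CPM in ExNeuron5, and 142 to 159 CPM in each of the other ExNeuron classes, an even level. Arhgap44, a GTPase-activating protein, had 37.5 CPM in ExNeuron5 and 98.5 to 167 CPM in the others. Other genes had peaks in 1 or more classes of the comparison. Adarb2, an RNA-editing family gene known from interneurons, had 157 CPM in ExNeuron5, 1402 CPM in ExNeuron4 and 960 CPM in ExNeuron6, but 136 to 234 CPM in ExNeuron1 to ExNeuron3. Kcnc2, a fast potassium channel, had 82.5 CPM in ExNeuron5 and 698 CPM in ExNeuron4, and Reln, a secreted matrix protein, had 202 CPM in ExNeuron5 and 790.2 CPM in ExNeuron3. Synpr, a synaptic vesicle protein, had 60.0 CPM against 143 to 397 CPM. Zdhhc14, Cdh7, 6530403H02Rik, Stx1a and Maf were also among the 12, with log2 ratios from -1.73 to -1.45. Of the 12 genes, 10 had their lowest level of the 6 ExNeuron classes in ExNeuron5, which their choice as low genes largely fixed. The interval lay wholly beyond 2-fold for none of them. Without the nuclei that held at least 2 glial, vascular or choroid markers, the log2 ratio of Arhgap44 went from -2.02 to -0.71 and that of Reln from -1.16 to -0.33, and among the leading genes Ldb2 went from 1.52 to 0.91 and Efr3a from 1.14 to 0.64.

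The label of the class was set against fixed marker lists. The summed level of the general excitatory list was 3697 CPM (interval 3378 to 4039) in ExNeuron5, 3748 CPM in the other ExNeuron classes and 2978 CPM in the non-neuronal classes. It did not part the classes cleanly: Microglia had 3618 CPM (interval 2962 to 4376) and Endothelial nuclei 3357 CPM (interval 2897 to 3869.8), both overlapping ExNeuron5, and ExNeuron4 had 2781 CPM. Slc17a7 alone had 562 CPM in ExNeuron5 and in the other ExNeuron classes, and 439.9 CPM in the non-neuronal ones, a narrow gap. The general GABAergic list, for neurons that release GABA, summed to 735 CPM (interval 597 to 896) in ExNeuron5. It summed to 1186 CPM in the other ExNeuron classes, where ExNeuron1 had 623 CPM and ExNeuron4 2811 CPM, and to 1325 CPM in the non-neuronal classes. Gad1, which makes GABA, was the 1 of 3 included GABAergic members at least 2-fold lower, against 1.56% of all included genes. ExNeuron5 thus sat with ExNeuron1 at the low end of the GABAergic list. Of the defining GABAergic markers Dlx2 was at 0.

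In the lists of cortical layer markers a few members passed 2-fold, which 1.41% of all included genes did as higher and 1.56% as lower. The cortical layer 5 list summed to 2670 CPM (interval 2399.8 to 2962) in ExNeuron5 and 1412 CPM in the other ExNeuron classes. Without Tshz2 it summed to 1402 CPM (interval 1209 to 1619) and 1348 CPM. Of its 6 included members Tshz2 was at least 2-fold higher; Bcl11b, a factor of subcerebral projection neurons, had a log2 ratio of 0.86 (interval 0.01 to 1.61), and Etv1, Pcp4 and Il1rapl2 had ratios from -0.02 to 0.10. Fezf2 had 3 UMIs and Fam84b was at 0. The layer 6 list summed to 2032 CPM (interval 1798 to 2289) against 1566 CPM in the other ExNeuron classes, and ExNeuron1 had an overlapping 1851 CPM (interval 1759.6 to 1946), with Tle4 and Hs3st4 at least 2-fold higher among 6 included and Foxp2 at -0.68. In the list for layers 2 to 4, 0 of 6 included members were 2-fold higher or lower, with a median log2 ratio of -0.34. These lists were written with earlier results of the same data known.

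Markers of other regions and cell types were mostly near the level of the other ExNeuron classes or below it. The choroid plexus or ependymal list was above it, with 585 CPM (interval 462 to 730.1) in ExNeuron5, 459 CPM in the other ExNeuron classes and 1097 CPM (interval 599.5 to 1839.9) in leiden value 9; the interval of ExNeuron5 overlapped those of the other ExNeuron classes. The cerebellar granule neuron list summed to 3840.0 CPM in ExNeuron5, against 4829.6 CPM in the other ExNeuron classes and 7212 CPM in ExNeuron3. None of its 11 included members differed 2-fold, and the intervals of 5 lay below no difference, where 4.49% of all included genes did. The hippocampal list had Cpne4 at least 2-fold higher and Wipf3 at least 2-fold lower among 5 included (1.41% and 1.56% over all genes), and Cpne4 stood at 689 CPM in ExNeuron6 against 187 CPM in ExNeuron5. The astrocyte list summed to 2182 CPM in ExNeuron5, 2427 CPM in the other ExNeuron classes and 10448 CPM in Astrocyte nuclei. The oligodendrocyte list summed to 3247 CPM, 3124 CPM and 20008 CPM in Oligodendrocyte nuclei, and the microglia list to 225 CPM, 253 CPM and 5086 CPM in Microglia nuclei. Pdgfra, Pecam1, Pdgfrb and C1qb were at 0 in ExNeuron5, which at this depth allows up to 22.5 CPM each. The part of other cell types in the ExNeuron5 profile was not tested further.

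In the lists of neuronal function few members passed 2-fold, which 1.41% of all included genes did as higher and 1.56% as lower. The interval lay above and below no difference for 7 and 5 of 33 synaptic adhesion genes, 5 and 1 of 19 axon guidance genes, 7 and 3 of 31 transcription factor genes, 3 and 5 of 24 presynaptic release genes, 1 and 1 of 13 RNA-binding and splicing genes, and 0 and 0 of 15 postsynaptic scaffold genes. Abundant genes have narrower intervals, so these counts are not like for like with the 7.06% and 4.49% over all genes. Among 15 included cadherin genes, 0 were at least 2-fold higher and 1, Cdh7, at least 2-fold lower, but the intervals of 6 lay above no difference and the median log2 ratio was 0.30. Cdh20 was highest with 0.99 and Pcdh10 and Cdh11 had 0.77 each. Among 20 included glutamate receptor genes none differed 2-fold. Grm8 (0.85, interval 0.43 to 1.24), Grm7 (0.71, interval 0.48 to 0.93) and Grid1 (0.77, interval 0.26 to 1.25), a pair of presynaptic metabotropic receptors and a delta receptor, had intervals above no difference, and Grik2, a kainate receptor, had one below (-0.47, interval -0.71 to -0.25). Among 33 included synaptic adhesion genes, Cntn3 was highest at 0.96 and none was 2-fold higher. The 13 mitochondrially encoded genes summed to 32602 CPM in ExNeuron5 and 32628 CPM in the other ExNeuron classes. The genes taking most of the UMIs of ExNeuron5 were Gm42418 (27450 CPM), Kcnip4 (10882 CPM), Dlgap1 (6000 CPM), Kcnd2 (5632 CPM) and Malat1 (5325 CPM). Gm42418 lies over a ribosomal RNA repeat, so reads of ribosomal RNA can be counted to it.

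ExNeuron1 was the class most alike ExNeuron5. Across the 2761 included genes, the Pearson correlation of log2(CPM + 10) with ExNeuron5 was 0.921 for ExNeuron1, 0.886 for ExNeuron4, 0.883 for ExNeuron2, 0.849 for ExNeuron3 and 0.814 for ExNeuron6. Genes are not independent replicates, all classes share 1 library, and they differ in summed UMIs. Over ExNeuron1, 52 of 2764 included genes were at least 2-fold higher (1.88%) and 39 at least 2-fold lower (1.41%). The 5 highest were Vwc2l, Tshz2, Traip, Tox and Chrm2, and the 5 lowest included Stx1a, Hspa9, Arhgap44 and Hpca. Stx1a, a syntaxin of vesicle fusion, had 60.0 CPM in ExNeuron5 and 240.5 CPM in ExNeuron1, and Hpca, a neuronal calcium sensor, had 97.5 against 268 CPM.

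ExNeuron4 differed from ExNeuron5 by more genes. Of 2809 included, 82 were at least 2-fold higher in ExNeuron5 (2.92%) and 116 at least 2-fold lower (4.13%). The 5 highest in ExNeuron5 were Tshz2, Vwc2l, Hs3st4, Tox and Traip. The 5 lowest were Kcnmb2, Adarb2, Sox6, Kcnc2 and Npas3. Kcnmb2, a potassium channel subunit, had 2 UMIs in ExNeuron5 and 128 in ExNeuron4 (423 CPM), and Sox6, a factor of interneurons from the medial ganglionic eminence, had 1 UMI against 71 (235 CPM). Tshz2 and Vwc2l thus led against both classes.

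Leiden values 5 and 9 of ExNeuron5 differed in several of the genes that mark the class. Of the 20 leading genes 18 were higher in leiden value 5, but for most the interval included no difference. Nrp1, Adcy8 and Gpc6 were 1.06-fold to 1.16-fold higher. Wls (108 against 157 CPM) and Uhmk1 (141 against 157 CPM) were lower. Leiden value 5 held 167 of the 169 Tshz2 UMIs (1385 CPM) and leiden value 9 held 2 (157 CPM), 8.84-fold less (interval 2.41 to 73.6). All 54 Vwc2l UMIs were in leiden value 5 (448 CPM), and the 0 UMIs in leiden value 9 allow up to 235 CPM at 3 counts. Adcy2 likewise had 59 UMIs (489 CPM) in leiden value 5 and 0 in leiden value 9, and Tox had 639 CPM against 157 CPM. Traip, Chrm2 and Ano4 also had 0 UMIs in leiden value 9, but their levels in leiden value 5 (166, 257 and 299 CPM) were under or not far above the limit that 0 allows. The leading genes were chosen for their level in ExNeuron5, most of whose UMIs are from leiden value 5, so a lower level in leiden value 9 was largely fixed by that choice and these values are a description.

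Depth did not separate the leiden values, whose median UMIs were 347 and 352.5. The median mitochondrial share was 3.21% in leiden value 5 and 4.14% in leiden value 9. The part of this difference in the others was not tested. With only 12767 UMIs in leiden value 9, 127 genes could be compared. Of these, 5 were at least 2-fold higher in leiden value 5 (3.94%) and 4 at least 2-fold higher in leiden value 9 (3.15%). Of the 20 leading genes of the class, Frmpd4 was the 1 with enough expected UMIs to be among the 127.

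Nrg1, a neuregulin, had 1833 CPM in leiden value 5 and 470.0 CPM in leiden value 9, a 3.90-fold difference (interval 1.76 to 10.7), and its level in leiden value 9 was below that of each other ExNeuron class. Ptprd, a synaptic receptor phosphatase, was 2.37-fold higher (5391 against 2271 CPM), Meg3, a nuclear noncoding RNA, 2.11-fold, Tenm2, a teneurin, 2.22-fold, and Arpp21, a cAMP-regulated phosphoprotein, 2.54-fold. Nrg3, Csmd1, Syt1, Celf2 and Asic2 were 1.49-fold to 1.96-fold higher. Nrg1, Meg3, Arpp21 and Syt1, 4 of the 10 genes, had a lower level in leiden value 9 than in any other ExNeuron class. The 10 were chosen as lower in leiden value 9 than in leiden value 5, which partly fixed this count.

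Zfpm2, a GATA cofactor, was 2.72-fold higher in leiden value 9 (1332 against 489 CPM), Ckb, a creatine kinase, 2.49-fold, and Dpp6, a potassium channel subunit, 2.02-fold. The nuclear receptor Rora had 3133 CPM against 1568 CPM. The mitochondrial genes mt-Co1 and mt-Atp6 were 1.65-fold and 1.35-fold higher, and Nrxn3, Magi2 and Gm42418 were 1.38-fold, 1.53-fold and 1.14-fold higher. For 6 of the 10 genes named by the rule for leiden value 9 the level in leiden value 9 was above that of all other 11 classes. These genes were chosen for a high level in leiden value 9, so this count was partly fixed by that choice. With nuclei thinned to 250 UMIs, which leaves fewer genes past the minimum, 0 genes were called higher in leiden value 9.

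**Figure D4:**
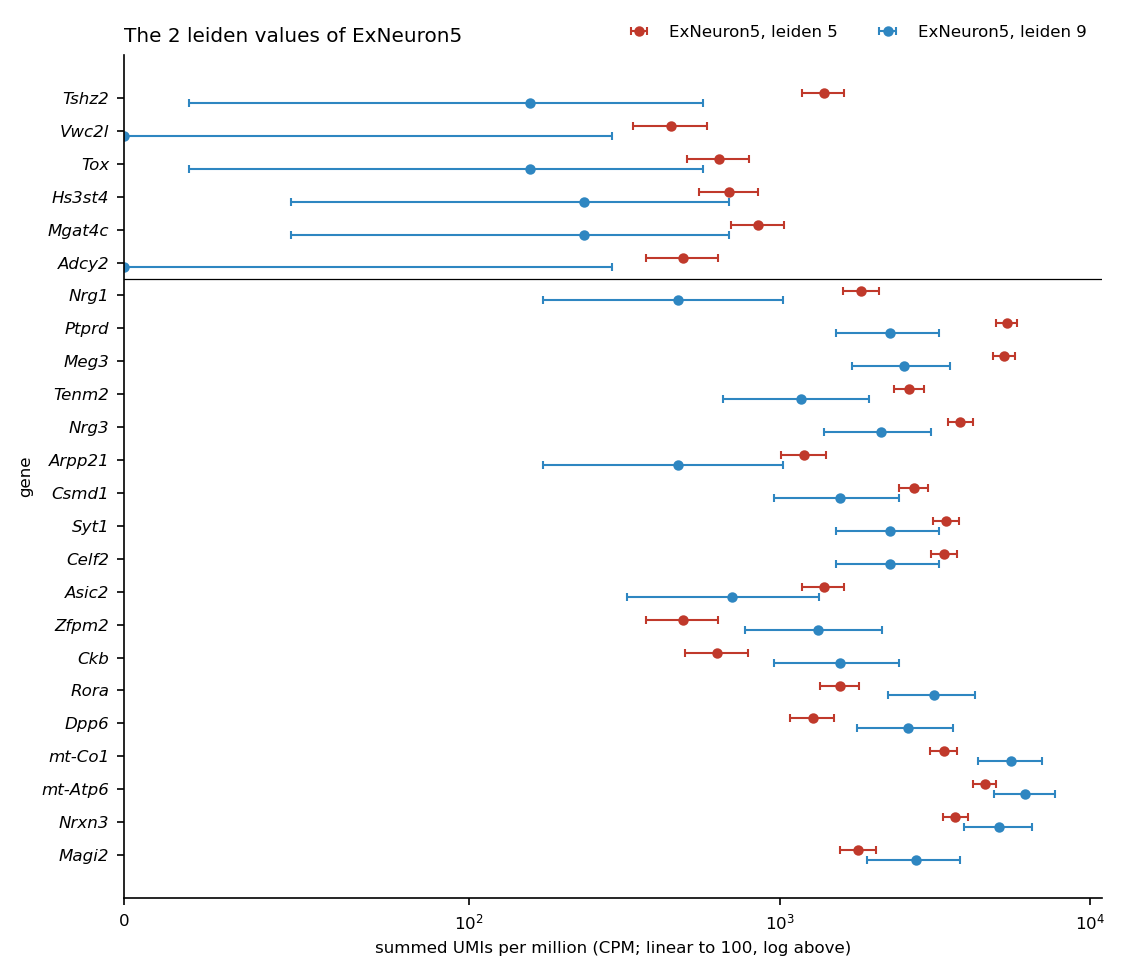
Level of 6 leading genes of ExNeuron5 (above the line) and of genes that differed most between leiden values 5 and 9 (below it), in CPM with 95% Poisson intervals; the axis is linear to 100 and logarithmic above. Tshz2 stands at 1385 CPM in leiden value 5 and 157 CPM in leiden value 9, and Zfpm2 at 489 and 1332 CPM.

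The leiden values also ranked the other classes differently. Over the same 127 genes, leiden value 5 correlated most with ExNeuron1 (Pearson 0.974 on log2(CPM + 10)), then with ExNeuron4 (0.934) and ExNeuron2 (0.899). Leiden value 9 correlated most with ExNeuron2 (0.928) and ExNeuron3 (0.897). ExNeuron4 and Endothelial (0.888 each), OPC (0.866), Microglia (0.851), ExNeuron6 (0.849) and ExNeuron1 (0.839) followed. The general GABAergic list summed to 655 CPM in leiden value 5 (interval 519 to 817) and 1488 CPM in leiden value 9 (interval 896 to 2324). The general excitatory list summed to 3757 CPM and 3133 CPM, with overlapping intervals. The Purkinje and thalamic neuron lists were also higher in leiden value 9 (5796 against 3674 CPM, and 3525 against 2256 CPM). The layer 5 list was lower there (1645 against 2779 CPM). Against the other ExNeuron classes, leiden value 5 alone had 50 genes at least 2-fold higher (1.98%) and 44 at least 2-fold lower (1.75%) of 2520. Leiden value 9 alone had 2 higher (1.65%) and 1 lower (0.826%) of 121. In leiden value 9 alone, Hs3st4, Mgat4c and Synpr had 3 UMIs each and Adarb2 had 7, and no difference from the other ExNeuron classes was detectable: the log2 ratio was -0.14 (interval -2.43 to 1.41) for Hs3st4 and 0.02 (interval -2.26 to 1.58) for Synpr. Leiden value 5 held 90.4% of the UMIs of ExNeuron5, so the values of the class are mostly those of leiden value 5.

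Nuclei of ExNeuron5 were split by a UMI of Tshz2, a split chosen after values had been seen. The 106 nuclei with a Tshz2 UMI had a median of 416.5 UMIs and the 225 without had 329, so CPM values are compared. Mgat4c had 1448 CPM in nuclei with a Tshz2 UMI and 407 CPM in those without, 3.56-fold (interval 2.34 to 5.52). Hs3st4 had 1146 and 347 CPM, 3.30-fold (interval 2.08 to 5.36), and Ano4 503 and 132 CPM, 3.82-fold (interval 1.81 to 8.60). Nrp1 had 362 and 47.8 CPM, 7.57-fold (interval 2.49 to 30.7). With nuclei thinned to 250 UMIs the log2 ratio of Nrp1 dropped from 2.92 to 1.39, on 5 and 4 UMIs. Of the 19 leading genes other than Tshz2, 15 had at least 10 expected UMIs in this split, and 7 of those had an interval above no difference: these 4, Tle4, Gpc6 and Frmpd4. Over all 860 genes so included, 10.8% did. The leading genes were chosen from these same nuclei, and 104 of the 106 nuclei with a Tshz2 UMI had leiden value 5. The count of 7 was thus partly fixed by that choice and is a description. Pcsk5, with fewer expected UMIs, also had its interval above no difference.

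For other leading genes the interval included no difference. Vwc2l had 483 CPM with and 359 CPM without, 1.35-fold (interval 0.753 to 2.38), and the level without was 22.5 times that of the other ExNeuron classes. Tox had 744 and 502 CPM, 1.48-fold (interval 0.926 to 2.36), and Chrm2 221 and 239 CPM, 0.925-fold (interval 0.400 to 2.02). For Chrm2 the log2 ratio went from -0.11 to 1.07 when nuclei were thinned to 250 UMIs. For Vwc2l it went from 0.43 to -0.13, on 10 and 23 UMIs. The sign also changed for Adcy8 (0.39 to -0.44) and Uhmk1 (-0.74 to 0.22). In nuclei without a Tshz2 UMI, Mgat4c was at 1.19 times and Hs3st4 at 1.34 times the level of the other ExNeuron classes. Because the leading genes were chosen for their level in all 331 nuclei, such levels over the other classes are partly fixed by that choice. Whether Tshz2 RNA is absent from those nuclei or was missed at this depth cannot be told from 1 UMI.

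**Figure D5:**
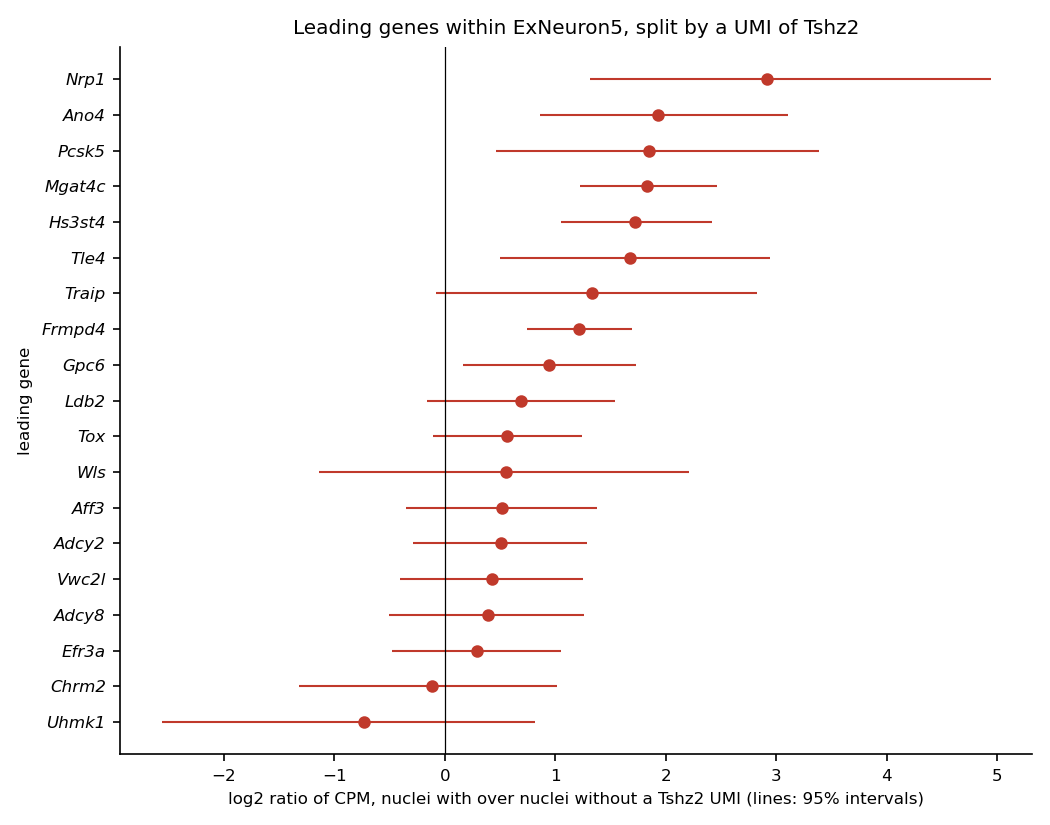
Log2 ratio of CPM of the leading genes within ExNeuron5, 106 nuclei with a Tshz2 UMI over 225 nuclei without; points are ratios and lines are 95% intervals. The intervals of 8 of 19 genes lie above 0, among them Pcsk5 with under 10 expected UMIs. Of the 15 genes with at least 10, 7 do, against 10.8% of all 860 genes so included. The intervals of Vwc2l, Tox and Chrm2 include 0.

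Counts of nuclei were also compared. Mgat4c had a UMI in 37 of the 106 nuclei with Tshz2 (34.9%) and in 25 of the 225 without (11.1%). Hs3st4 had one in 25.5% and 9.78%, and Vwc2l in 15.1% and 11.1%. Tox was found in 29.2% and 15.6%, Ldb2 in 20.8% and 9.78%, and Tle4 in 12.3% and 4.44%. All 6 genes examined were found more often in the deeper nuclei with a Tshz2 UMI. Within leiden value 5 alone, Mgat4c was found in 35.6% of nuclei with a Tshz2 UMI and 11.3% of those without. Hs3st4 was also found more often beside Vwc2l, in 17 of 41 nuclei (41.5%) against 32 of 290. In the other ExNeuron classes, Mgat4c was found in 16.8% of the 107 nuclei with a Tshz2 UMI and 9.47% of those without, Ldb2 in 17.8% and 4.06%, Tox in 10.3% and 3.97%, Hs3st4 in 10.3% and 7.06%, and Vwc2l in 1.87% and 0.525%. Tle4 went the other way there, with 1.87% and 2.72%. These shares were not thinned to equal depth.

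The genes whose levels over the 12 classes were most like those of Vwc2l, the leading gene, were Ube2l3 (Pearson 0.893 on log2(CPM + 10)), Sestd1 (0.833), 2700049A03Rik (0.832), Fam73a (0.827) and Dcc (0.817). The 12 points share 1 library and differ in depth. Ube2l3 had 172 CPM in ExNeuron5 and at most 118 CPM in another class. Dcc had 795 CPM in ExNeuron5, 705 CPM in OPC and 638 CPM in ExNeuron4, so neither was marked for ExNeuron5 as Vwc2l was.

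The plate nuclei of the same series gave the leading genes in an assay that the annotation had not used. They were sorted into wells, read by SMART-Seq2 and labelled cortex, and 98 nuclei of batch 1 (median 180584 counts) and 134 of batch 2 (median 42747 counts) were in the tables. Tshz2 had a count in 7 nuclei of batch 1 (7.14%, interval 2.92% to 14.2%) and 6 of batch 2 (4.48%, interval 1.66% to 9.49%). Vwc2l had one in 4 (4.08%) and 6 (4.48%). No nucleus had both, but with so few nuclei holding either gene this does not show that the genes mark different nuclei. A single nucleus held 78.5% of the Tshz2 counts of batch 1 and 96.2% of those of batch 2. Tox was found in 16.3% and 20.1% of nuclei, and Hs3st4 in 13.3% and 24.6%. The median share over the 20 leading genes was 14.3% and 17.2%, below the median of 24.0% and 28.4% over the genes included in the droplet comparison. The plate nuclei carry no ExNeuron labels here, so these shares are those of the genes and not of the class.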

How the data were processed

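For the droplet nuclei the authors deposited unnormalized UMI counts of 19905 genes in 7031 nuclei; the gene table names the reference mm10_premrna, and the submitters' processing notes name builds hg19 and mm10. No label or header names the aligner or counter. The deposited annotation gives class, leiden value and the mitochondrial fraction of each nucleus. Nuclei held 235 to 998 UMIs and at most 4.99% mitochondrial UMIs, so they had been filtered before deposit. No doublet caller was run. The deposited plate tables hold raw read counts; PCR reads there are not independent molecules. Batch 3 of the plates was not analysed here.

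UMIs were summed per class and divided by class totals (CPM). Ratios carry exact conditional binomial 95% intervals, levels exact Poisson and shares Clopper-Pearson intervals, all for counting error only; an arm at 0 was set to 3 counts. A gene was included when the mean rate of both arms gave at least 10 expected UMIs in the smaller arm, and called past 2-fold. The calculation was tested on simulated data. The genes named were the 20 highest and 12 lowest by the interval bound nearest to no difference, the 10 highest per leiden value, 5 per direction against each alike class, the 5 largest shares with Malat1, list members, and the 5 most like the leading gene. Some genes that this rule names are not reported here. Members, lists and tests were chosen with earlier results of these data known. Coordinates come from GENCODE M21 on GRCm38, which matched 19822 of the 19905 genes. Python 3.11.15, numpy 2.4.6, pandas 2.3.3, scipy 1.17.1 and matplotlib 3.10.9 were used.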

Additional observations from a re-analysis of the deposited data

How the results depend on the processing

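No paired analysis was possible because the droplet nuclei are 1 library and the groups share no replicates. Against the other ExNeuron classes, 39 genes were at least 2-fold higher and 43 lower. Where nuclei with 2 or more glial or vascular markers were left out, which removes most nuclei, 9 and 5 were called. With leiden value 9 alone the counts were 2 and 1, with at least 20 expected UMIs 14 and 4, with no filter 1256 and 976, and thinning gave 27 lower. In leiden value 9 alone the log2 ratio was -0.14 for Hs3st4, -0.54 for Mgat4c, 0.024 for Synpr and 0.41 for Adarb2, opposite in sign to the class but on 3 to 7 UMIs and with intervals that include 0. Between leiden values 5 and 9, the counts of 5 and 4 genes became 3 and 1 with at least 20 expected UMIs, 213 and 928 with no filter, and 0 and 1 without the nuclei with glial markers; thinning left 0 genes higher in leiden value 9. ExNeuron4 ranked 3 instead of 2 in likeness with an offset of 100 CPM, behind ExNeuron2 (0.918 against 0.920). The marker list members at least 2-fold lower were 7, and 4 with thinning, which gave Tshz2 in 21.6% and Vwc2l in 8.51% of ExNeuron5 nuclei. Asking for at least 5 counts in plate nuclei left Vwc2l in 1.02% of batch 1 and Tshz2 in 0.746% of batch 2. The mean of per-nucleus CPM there was 4.55 and 24.8 for Vwc2l in batches 1 and 2, and 3.94 for Tshz2 in batch 2. Of 278 recomputed log2 ratios of the 32 named genes against the other ExNeuron classes, 250 stayed within the first interval. The others came mainly from 2 settings: with leiden value 9 alone 10 left it, 4 changed sign and 8 stayed, and 12 of 32 left it without the nuclei with glial markers, where Arhgap44 went from -2.02 to -0.71, Reln from -1.16 to -0.33, Ldb2 from 1.52 to 0.91 and Efr3a from 1.14 to 0.64, and Kcnc2 and 7 leading genes moved away from 0. Apart from counts that fewer genes or nuclei explain by construction, the cause was not tested. Depth limits every statement: a median of 347 UMIs per nucleus cannot show whether a low gene is absent.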
